A study of Mus musculus with 12 samples.

Results

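Wild-type mouse liver after ischemia was compared with a wild-type sham control by RNA sequencing, across all annotated genes. The comparison takes 6 of the 12 libraries of the series: the 3 labelled WT, which stand for the ischemic arm by the series title and design, and the 3 labelled Sham. Both groups are labelled with the genotype WT and the tissue liver, and no allele, transgene or agent is given for either. The other 6 libraries, from livers of 2 other genotypes (RIPK1 D138N and TNFR1/2 KO, 3 each), entered only the common estimate of spread. Age, sex, strain, the length of the ischemia, the time of collection and whether the repeats are separate animals are not given in the sources used here, so each p-value measures only the spread between these libraries, which may be technical. The libraries are called WT_0, WT_1, WT_2, Sham_0, Sham_1 and Sham_2, as in the deposited table, and 3 values in a row always follow that order.

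Ischemia cuts the supply of oxygen and nutrients to the liver and is followed, once blood returns, by a second phase of injury. In hepatocytes, the cells that make up most of the organ, lack of oxygen stabilizes hypoxia-inducible factors (HIF), which switch on genes of glucose uptake, glycolysis and vessel growth. Injured and neighbouring cells switch on early response factors such as AP-1, release chemokines through NF-kB, and activate programmes against oxidants and misfolded proteins. The normal hepatocyte, by contrast, spends much of its transcription on secreted plasma proteins and on enzymes of urea, amino acid, bile acid, lipid and drug metabolism.

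Expression was given for 53796 annotated genes as FPKM, by name the fragments per kilobase of transcript, scaled to the fragments of the library. FPKM times the longest transcript length in kilobases summed to 628925, 614340 and 630217 in WT and 1339866, 1289513 and 1453617 in Sham. Columns each scaled only to their own fragments in genes would give about equal sums. These columns were thus scaled in another way, which is not stated. The 11728 genes at 1 FPKM or more in at least 3 of the 12 libraries were tested with limma on log2(FPKM + 1), so that a fold change understates the change of genes near or below 1 FPKM, and a gene was called at a Benjamini-Hochberg adjusted p under 0.05. As deposited, 1918 genes (16.4%) were higher and 4913 (41.9%) were lower in WT than in Sham. This split depends on how the libraries are scaled to each other. The deposited columns summed to 291465, 303514 and 288934 FPKM in WT and 721200, 649373 and 750501 FPKM in Sham, a ratio of 0.417 with groups that do not overlap (exact permutation test, two-sided, p = 0.1, the smallest that 3 against 3 allows; 0.133 after adjustment over 8 library measures). The median log2 fold change of all tested genes was -0.364 as deposited, -0.026 after median-of-ratios scaling, -0.053 after quantile normalization, and 0.673 when every library was scaled to the same summed FPKM. Calls went with it: 3169 higher (27.0%) and 3185 lower (27.2%) with median of ratios, 2936 (25.0%) and 3164 (27.0%) with quantiles, and 6236 (53.2%) and 1183 (10.1%) with equal sums. Of these calls, 1867 genes (15.9% of those tested) were higher and 1174 (10%) were lower alike under all 4 scalings. The share of calls that were higher ran from 28.1% as deposited to 84.1% with equal sums, and 563 genes were lower under the one and higher under the other. Below, "rose" and "fell" refer to calls on the deposited values, each count is followed by the number alike under all 4 scalings, and the 2 backgrounds to set them against are 16.4% higher and 41.9% lower as deposited, and 15.9% and 10% under all 4. A list in which 41.9% or fewer fell as deposited thus held no more falls than all tested genes did.

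**Figure D1:**
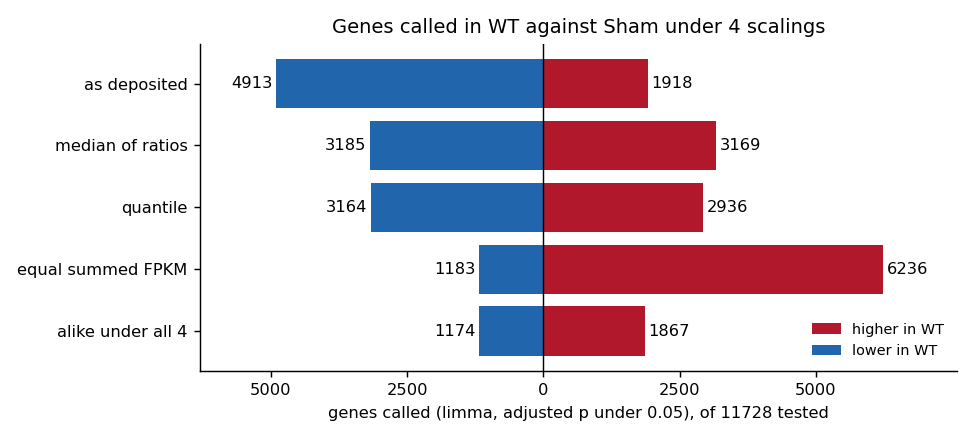
Genes called higher (right) and lower (left) in WT than in Sham, of 11728 tested, for the deposited values, 3 other scalings, and alike under all 4. Lower calls outnumber higher ones as deposited (4913 against 1918), while 6236 are higher with equal summed FPKM.

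Hepatocyte markers were present throughout, as the tissue label requires. The 13 hepatocyte markers above 0 in every library, among them Ttr, Apoa1 and Cyp2e1, summed to 11795, 15562 and 10566 FPKM in WT and 49851, 46932 and 53366 FPKM in Sham. Alb, the gene of albumin, was listed at exactly 0 in all 6 libraries, and Trf, the gene of transferrin, at 0 in the 3 WT libraries only. Such zeros, in genes that every hepatocyte uses, cannot be read as absence, and 69 tested genes were listed at 0 in a whole group. No fold change is given for them and they are left out of the counts for gene lists below. In bulk tissue, fewer cells of a type and less RNA per cell cannot be told apart. Log2 values correlated at 0.959 to 0.985 (Pearson's r across tested genes, which are not independent replicates) within WT, 0.967 to 0.98 within Sham and 0.8 to 0.854 between the groups. One library, WT_1, stood apart from the other 2 WT libraries in neutrophil, mesothelial and heat shock genes. Leaving it out, 1770 of the 1918 higher and 4380 of the 4913 lower genes were still called. Where a named gene lost its call without a single library, the libraries are given in brackets beside it, with the highest p of those fits. List counts given without a library are calls on the deposited values.

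The largest rises and falls were picked only among called genes whose WT and Sham values do not overlap, so that separation follows from the choice. Up to 4 members named per list below were picked under the same condition. Ier3, an early response gene that acts on survival and MAP kinase signalling (chr17:35821684-35822923, mm10, GENCODE M21 annotation), was among the genes with the largest rises. It stood at 122, 72.2 and 122 FPKM in WT and 0.806, 0.733 and 1.19 FPKM in Sham. The lowest WT library was far above the highest Sham library (log2 fold change 5.77 ± 0.38, limma adjusted p = 2.03e-07, where ± is the standard error in this and all later values). Gsta1, a glutathione transferase, rose from 1.24, 0.724 and 0.566 FPKM in Sham to 67.4, 34.7 and 106 FPKM in WT (log2 fold change 5.13 ± 0.47, limma adjusted p = 2.17e-06). Sham levels of both genes were near 1 FPKM, so their fold changes are understated. Slpi, a secreted inhibitor of neutrophil proteases, stood at 114, 196 and 159 FPKM in WT and 9.22, 3.09 and 4.33 FPKM in Sham. Aqp8, a water channel of the hepatocyte, stood at 131, 129 and 118 FPKM in WT and 5.32, 3.42 and 3.94 FPKM in Sham. Neither gene had a WT value near the Sham values (log2 fold changes 4.66 ± 0.45 and 4.62 ± 0.27; limma adjusted p = 3.17e-06 and 6.82e-08). Smox, the oxidase that turns spermine into spermidine with release of hydrogen peroxide, was under 1 FPKM in every Sham library and at 42.3, 31.4 and 53.7 FPKM in WT. The other genes described here among the largest rises were Ccl2, Cd14, Atf3, Timp1, Pkm, Hilpda, Maff, Adm and Cyr61, and all 14 were called higher under all 4 scalings.

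The largest falls, ranked on log2(FPKM + 1), can only be in genes with Sham levels well above 1 FPKM. Their mean Sham levels ran from 28.6 FPKM (Tff3) to 1799 FPKM (Mat1a). Nnmt, the nicotinamide methyltransferase, fell from 1865, 1329 and 1788 FPKM in Sham to 6.45, 10.3 and 7.69 FPKM in WT (log2 fold change -7.51 ± 0.29, limma adjusted p = 2.17e-09). Cyp8b1, the sterol 12-alpha-hydroxylase that sets the ratio of cholic acid to other bile acids (chr9:121914356-121916305), stood at 6.88, 5.85 and 7.23 FPKM in WT and 137, 321 and 219.8 FPKM in Sham (log2 fold change -4.81 ± 0.38, limma adjusted p = 7.01e-07). Its 3 WT values lay within a narrow band, while the Sham values spread more than 2-fold. Sds, serine dehydratase, which feeds serine into gluconeogenesis, stood at 16.4, 16.2 and 12.2 FPKM in WT and 361, 428 and 393 FPKM in Sham (log2 fold change -4.64 ± 0.27, limma adjusted p = 8.11e-08). G0s2, an inhibitor of the triglyceride lipase ATGL, stood at 5.57, 8.88 and 6.39 FPKM in WT and 224, 289 and 52.7 FPKM in Sham, with 1 low Sham library. Moxd1, a monooxygenase-like gene, fell from 30.0, 49.7 and 35.7 FPKM to under 1 FPKM in all 3 WT libraries. Rarres1, a retinoid-induced gene, was close to constant within each group, at 11.7, 14.7 and 15.05 FPKM in WT and 221, 229 and 226 FPKM in Sham (log2 fold change -3.94 ± 0.29, limma adjusted p = 4.23e-07). Hopx, a homeodomain-only cofactor, stood at 9.52, 12.3 and 7.62 FPKM in WT and 216, 182 and 146 FPKM in Sham. Mfsd2a, a transporter of lysophosphatidylcholine, stood at 2.71, 1.83 and 2.11 FPKM in WT and 28.8, 75.3 and 48.1 FPKM in Sham. Bhmt, Mat1a, Tdo2, Tff3, B3galt1, Aass and Cyp2b10 complete the 15, and all 15 were called lower under all 4 scalings. Among all genes called alike under the 4 scalings, 225 higher ones had a deposited log2 fold change of 2 or more, and 624 lower ones had one of -2 or less.

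**Figure D2:**
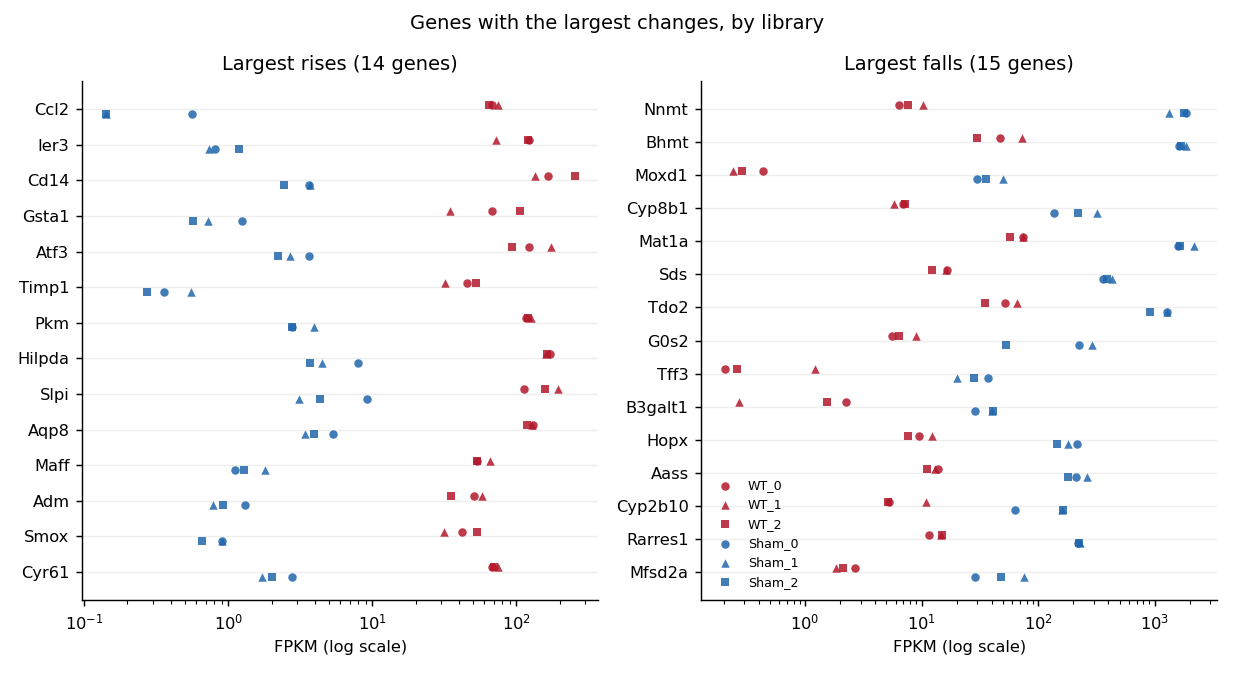
FPKM on a log scale in each library for 14 of the genes with the largest rises (left) and the 15 with the largest falls (right), red for WT and blue for Sham, with 1 marker per library. The genes were picked among those whose WT and Sham values do not overlap, so the markers are apart by choice. Ier3 lies at 72.2 FPKM or more in WT and at 1.19 FPKM or less in Sham.

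Genes of the early transcriptional response were high in WT. Of 11 tested members of the AP-1, ATF and MAF families, leucine-zipper factors that act within minutes to hours of stress, 10 rose and 1 fell, and all 10 rises were called under all 4 scalings (median log2 fold change 2.26). Jun, a core subunit of AP-1, stood at 106, 127 and 88.3 FPKM in WT and 12.3, 24.3 and 31.8 FPKM in Sham (log2 fold change 2.26 ± 0.31, limma adjusted p = 4.75e-05). Of 21 other early response genes, 17 rose, all of them under every scaling, and 1 fell. Myc, which drives growth and ribosome production, stood at 55.3, 56.2 and 45.2 FPKM in WT and 2.502, 3.72 and 3.90 FPKM in Sham (log2 fold change 3.61 ± 0.24, limma adjusted p = 2.12e-07). Egr1, a zinc-finger early gene, was at 101, 65.2 and 89.0 FPKM in WT against a Sham range that itself ran from 3.03 to 18.9 FPKM, and Klf6 was at 53.6, 46.8 and 44.8 against 5.05, 3.83 and 4.69 FPKM. The inhibitors that such signals switch on as feedback moved in the same direction: of 23 tested members, 18 rose (17 under all 4 scalings) and 1, Socs2, fell as deposited. The phosphatases Dusp5, Dusp10 and Dusp4, which switch off MAP kinases, were at 15.7, 7.94 and 16.5, at 15.2, 13.3 and 14.5 and at 8.27, 7.02 and 8.45 FPKM in WT. In Sham the same genes did not exceed 1.48 FPKM. Their log2 fold changes were 3.59 ± 0.28, 2.85 ± 0.21 and 2.58 ± 0.18.

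NF-kB is the factor through which TNF and toll-like receptors switch on inflammatory genes. Of 16 tested subunits and kinases of the pathway, 8 rose, all under the 4 scalings. As deposited 3 fell (Chuk, Tbk1 and Map3k7, all kinases), none of them under all 4. The subunit gene Nfkb2 stood at 6.94, 6.15 and 9.25 FPKM in WT and 0.514, 0.702 and 0.731 FPKM in Sham (log2 fold change 2.34 ± 0.18, limma adjusted p = 6.00e-07). Nfkb1 stood at 9.62, 9.77 and 12.3 FPKM in WT and 2.88, 4.45 and 4.13 FPKM in Sham (log2 fold change 1.27 ± 0.18, limma adjusted p = 7.05e-05). The genes of TNF death signalling were divided: of 19 tested, 6 rose and 6 fell, with 6 and 2 alike under all 4 scalings. Tnfrsf12a, the receptor for TWEAK, stood at 159.7, 132 and 175 FPKM in WT and 16.5, 12.4 and 17.0 FPKM in Sham (log2 fold change 3.27 ± 0.37, limma adjusted p = 1.02e-05). Birc3, an inhibitor of apoptosis, was at 7.24, 5.91 and 9.13 against 1.94, 1.45 and 1.12 FPKM, and Mlkl, the executioner of necroptosis, at 4.55, 6.01 and 4.83 against 3.87, 1.65 and 2.66 FPKM (call lost without WT_1 or Sham_1, limma adjusted p up to 0.072). The 2 members that fell under all 4 scalings were Fas, a death receptor, with 2.998, 3.71 and 4.09 FPKM in WT and 25.9, 15.5 and 24.4 FPKM in Sham (log2 fold change -2.29 ± 0.22, limma adjusted p = 3.15e-06), and Casp8, the initiator caspase that such receptors activate, with 5.86, 3.98 and 6.16 FPKM in WT and 17.9, 20.2 and 21.8 FPKM in Sham (log2 fold change -1.74 ± 0.18, limma adjusted p = 4.98e-06). Tnf itself was at 0.115, 0.152 and 0.147 FPKM in WT and 0.0295, 0 and 0 FPKM in Sham and was not tested. Ripk1, the kinase that is mutated in another group of the series, fell as deposited (-0.62; call lost without WT_1 or Sham_2, limma adjusted p up to 0.083), while Ripk3 was too low to be tested.

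Chemokines recruit leukocytes. Of 18 tested, 9 rose, all under the 4 scalings, and 7 fell, of which 2 (Ccl27a and Cxcl13) fell under all 4. Both shares that fell were near the 41.9% and 10% of all tested genes. Without WT_2 or Sham_0, 4 fell. The 2 neighbouring genes Cxcl2 and Cxcl1, both ligands of the neutrophil receptor CXCR2, went opposite ways as deposited. Cxcl2 stood at 32.6, 17.0 and 24.8 FPKM in WT and 0.578, 0.825 and 0.281 FPKM in Sham (log2 fold change 4.02 ± 0.63, limma adjusted p = 1.42e-04). Cxcl1 was the more abundant of the pair and stood at 138.36, 98.7 and 115 FPKM in WT and 291, 208 and 369 FPKM in Sham (log2 fold change -1.27 ± 0.44, limma adjusted p = 0.0251), and with equal summed FPKM its log2 fold change was -0.02 (call lost without WT_1, WT_2, Sham_0 or Sham_2, limma adjusted p up to 0.088). The rise of Cxcl2 was called under every scaling and the fall of Cxcl1 was not. Their promoters, from 250 bases before to 50 after the annotated start (RefSeq, GRCm38.p6, plus strand, at chr5:90903649-90903948 and chr5:90890995-90891294), are shown because each holds the same kappa B match, the sequence bound by NF-kB, in capitals:
Cxcl2: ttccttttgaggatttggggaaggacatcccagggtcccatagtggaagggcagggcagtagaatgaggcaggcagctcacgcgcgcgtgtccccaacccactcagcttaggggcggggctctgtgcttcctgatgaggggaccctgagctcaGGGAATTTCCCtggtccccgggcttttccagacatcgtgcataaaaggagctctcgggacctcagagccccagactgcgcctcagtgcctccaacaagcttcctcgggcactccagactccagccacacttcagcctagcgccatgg
Cxcl1: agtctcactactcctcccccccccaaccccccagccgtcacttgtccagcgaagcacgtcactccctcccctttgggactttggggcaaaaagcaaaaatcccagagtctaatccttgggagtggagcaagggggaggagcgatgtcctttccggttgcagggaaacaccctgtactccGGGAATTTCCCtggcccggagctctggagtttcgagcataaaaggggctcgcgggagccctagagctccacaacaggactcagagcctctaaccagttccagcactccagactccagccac
The run GGGAATTTCCC begins 97 bases before the start of Cxcl2 and 71 before that of Cxcl1, and in each it holds 2 overlapping matches, 1 on each strand. Over both strands, a kappa B match was found in 13.5% of 1877 promoters of genes higher under all 4 scalings, in 8.5% of 993 promoters of genes lower under all 4, in 10.2% of 10601 promoters of all tested genes with an entry, and in 8.5% of all 32851 promoters. Of 16 promoters of tested chemokines 6 held one. Such matches describe letters, not binding.

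Among 21 tested interleukin, IL-6 family and inflammasome genes, 7 rose under all 4 scalings and 8 fell, 2 of them under all 4. Both shares that fell were near the 41.9% and 10% of all tested genes. Il1rn, the antagonist of the IL-1 receptor, stood at 22.6, 12.5 and 22.7 FPKM in WT and 1.15, 2.09 and 1.22 FPKM in Sham (log2 fold change 2.998 ± 0.29, limma adjusted p = 2.96e-06). The genes that fell under all 4 were Il1rap, the accessory chain of that receptor, with 9.39, 12.1 and 6.31 FPKM in WT and 55.6, 49.9 and 50.2 FPKM in Sham, and Il18, with 1.72, 2.42 and 1.42 FPKM in WT and 9.55, 6.90 and 10.2 FPKM in Sham. The receptor chain Il1r1 fell as deposited (21.7, 10.7 and 21.6 FPKM in WT and 53.6, 65.5 and 79.3 FPKM in Sham), but not under all scalings. Il6 was at 4.42, 1.15 and 4.45 FPKM in WT, lowest in WT_1, and at or near 0 in Sham, and Il1b was at 3.34, 1.85 and 5.21 against 1.59, 1.03 and 0.293 FPKM and did not pass the test (log2 fold change 1.17 ± 0.49, limma adjusted p = 0.0582). Of 13 tested genes of lipopolysaccharide sensing, 3 rose under all 4 scalings, namely Cd14, Ly96 and Irak3, and 5 fell, 2 of them under all 4. As deposited, the share that fell was near the 41.9% of all tested genes. The co-receptors Cd14 and Ly96 stood at 166, 135 and 256 FPKM and at 10.9, 9.69 and 13.1 FPKM in WT against 3.65, 3.69 and 2.46 and 4.40, 3.67 and 5.69 in Sham. The adaptor Myd88 (6.64, 5.17 and 8.13 FPKM in WT and 19.9, 21.4 and 33.8 FPKM in Sham) and Lbp, which loads lipopolysaccharide onto CD14 (20.2, 26.1 and 21.8 FPKM in WT and 68.9, 79.5 and 83.1 FPKM in Sham), fell under all 4. The acute-phase proteins that hepatocytes secrete in inflammation did not rise as a group: of 24 tested, 1 rose and 16 fell, 4 of them under all 4 scalings. Apcs, serum amyloid P, stood at 99.4, 35.6 and 204 FPKM in WT and 1576, 1028 and 1512 FPKM in Sham (log2 fold change -3.89 ± 0.48, limma adjusted p = 2.18e-05), with WT_1 lowest, and Itih4 at 238, 269 and 217 FPKM in WT and 2618, 2101 and 3779 FPKM in Sham (log2 fold change -3.51 ± 0.26, limma adjusted p = 4.34e-07). Orm3 was the member that rose, at 25.1, 37.1 and 21.9 against 11.6, 14.0 and 14.5 FPKM (call lost without WT_1 or Sham_0, limma adjusted p up to 0.082). Lcn2, lipocalin 2, was high in all 6 libraries, at 2292, 1838 and 2746 FPKM in WT and 1502, 1729 and 3679 FPKM in Sham, and did not pass the test (log2 fold change 0.09 ± 0.67, limma adjusted p = 0.916).

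Most interferon response genes rose: of 32 tested, 21 rose (20 under all 4 scalings) and 3 fell, none of them under all 4. Ifit1, which binds foreign RNA, stood at 8.14, 10.6 and 9.34 FPKM in WT and 1.27, 2.15 and 1.43 FPKM in Sham (log2 fold change 1.99 ± 0.18, limma adjusted p = 2.26e-06). Oasl1 stood at 6.58, 7.11 and 9.12 FPKM in WT and 1.32, 2.12 and 1.48 FPKM in Sham (log2 fold change 1.70 ± 0.31, limma adjusted p = 4.16e-04). The 3 that fell were Irf9, Iigp1 and Ifi47, with deposited log2 fold changes of -0.58, -0.97 and -1.13. Class I antigen presentation went the other way as deposited, with 2 of 15 members higher and 9 lower, but none of the falls held under all 4 scalings. The 2 rises, H2-Q4 (63.5, 70.8 and 52.1 FPKM in WT and 13.6, 16.9 and 23.6 FPKM in Sham) and Tap1 (7.01, 8.92 and 7.28 FPKM in WT and 3.66, 4.91 and 5.52 FPKM in Sham), did. H2-Q4 is 1 of a family of near-identical class I genes, between which reads can be split, so its value is uncertain.

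Targets of the hypoxia-inducible factors mostly rose. Of 26 tested targets outside glycolysis, 18 rose, every one under all 4 scalings (median log2 fold change 1.76). As deposited 2 fell, but not under all 4. Hilpda, which holds back the breakdown of lipid droplets, stood at 171, 162 and 164 FPKM in WT and 7.97, 4.50 and 3.72 FPKM in Sham (log2 fold change 4.76 ± 0.68, limma adjusted p = 6.47e-05). Adm, the vasodilator adrenomedullin, was at 50.8, 58.0 and 35.1 FPKM in WT and 1.31, 0.783 and 0.924 FPKM in Sham (log2 fold change 4.59 ± 0.32, limma adjusted p = 3.08e-07). Egln3, a HIF hydroxylase that HIF itself switches on, was almost constant within each group, at 34.8, 38.2 and 31.8 FPKM in WT and 1.90, 1.90 and 1.87 FPKM in Sham. Vegfa, the endothelial growth factor, stood at 102, 109 and 87.3 FPKM in WT and 17.9, 20.3 and 19.6 FPKM in Sham (log2 fold change 2.30 ± 0.22, limma adjusted p = 3.25e-06). Hif1a, whose protein is controlled mainly by its stability, rose less, to 16.1, 10.3 and 17.6 from 7.25, 7.29 and 7.65 FPKM (log2 fold change 0.87 ± 0.20, limma adjusted p = 0.00204). The 2 that fell as deposited were Bnip3, a mitophagy receptor, with 154, 138.002 and 156 FPKM in WT and 349, 213 and 195 FPKM in Sham (log2 fold change -0.70 ± 0.23, limma adjusted p = 0.017; call lost without WT_1 or Sham_0, limma adjusted p up to 0.073), and Plin2, a coat protein of lipid droplets, with 332, 152 and 425 FPKM in WT and 688, 664 and 635 FPKM in Sham. With equal summed FPKM the log2 fold changes were 0.55 for Bnip3, which was then called higher (limma adjusted p = 0.0343), and 0.0070 for Plin2. The promoters of Hilpda (plus strand, chr6:29272376-29272675) and Bnip3 (minus strand, chr7:138909457-138909756; both RefSeq, GRCm38.p6) are shown as a member of the group with a large rise and a member whose direction turned with the scaling, with the core of the hypoxia response element, ACGTG or GCGTG on either strand, in capitals:
Hilpda: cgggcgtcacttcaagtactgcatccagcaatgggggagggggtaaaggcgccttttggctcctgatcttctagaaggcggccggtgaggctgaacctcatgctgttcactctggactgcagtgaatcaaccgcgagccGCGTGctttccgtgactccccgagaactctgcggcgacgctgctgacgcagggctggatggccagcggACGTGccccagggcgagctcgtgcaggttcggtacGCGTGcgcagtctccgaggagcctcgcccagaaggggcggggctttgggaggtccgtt
Bnip3: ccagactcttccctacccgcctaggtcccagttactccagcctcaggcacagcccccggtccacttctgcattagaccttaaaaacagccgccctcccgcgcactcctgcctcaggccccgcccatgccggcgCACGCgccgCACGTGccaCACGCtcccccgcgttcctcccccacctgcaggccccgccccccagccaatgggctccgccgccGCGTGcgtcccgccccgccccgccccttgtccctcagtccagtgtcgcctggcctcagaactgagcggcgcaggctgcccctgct
Hilpda holds 3 matches, beginning 111, 43 and 8 bases before the start, and Bnip3 holds 5, of which 2 overlap as CACGTG. The core is short and common: it was found in 64.3% of promoters of genes higher under all 4 scalings, in 62.2% of those of all tested genes and in 43.8% of all promoters, against 75.0% of 24 promoters of the HIF list.

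Genes of glycolysis went both ways. Of 29 tested genes of glucose uptake, glycolysis and lactate transport, 15 rose under all 4 scalings and 8 fell, 3 of them under all 4. Pkm, the muscle-type pyruvate kinase, stood at 118, 126 and 121 FPKM in WT and 2.79, 3.93 and 2.76 FPKM in Sham (log2 fold change 4.89 ± 0.25, limma adjusted p = 2.62e-08). Slc16a3, the lactate exporter MCT4, was below 0.4 FPKM in Sham and at 20.98, 22.2 and 20.9 FPKM in WT (log2 fold change 4.11 ± 0.23, limma adjusted p = 6.08e-08). Slc2a1, the glucose transporter GLUT1, stood at 54.9, 68.2 and 50.5 FPKM in WT and 2.33, 6.16 and 3.08 FPKM in Sham, and the liver-type phosphofructokinase gene Pfkl at 34.7, 30.3 and 34.0 FPKM in WT and 2.23, 3.10 and 4.31 FPKM in Sham. Those that fell under all 4 included Slc2a2, the hepatocyte transporter GLUT2, with 9.62, 12.7 and 5.46 FPKM in WT and 34.9, 30.2 and 32.8 FPKM in Sham, and Pfkfb1, the liver bifunctional enzyme, with 0.903, 0.420 and 0.730 FPKM in WT and 18.6, 18.8 and 16.1 FPKM in Sham. Ldha, lactate dehydrogenase A, fell as deposited (-0.73) and was at 0.53 with equal sums, and Gapdh rose (0.61; call lost without WT_0, WT_2 or Sham_0, limma adjusted p up to 0.14). Ratios of 2 genes within a library do not depend on a single scaling factor per library, though quantile normalization can change them. They were chosen after values had been seen and carry no test. Slc2a1 to Slc2a2 stood at 5.70, 5.39 and 9.24 in WT and at 0.0667, 0.204 and 0.0938 in Sham. Pkm to Pklr, the liver-type pyruvate kinase, stood at 5.65, 8.74 and 9.52 against 0.161, 0.202 and 0.0680. In these 2 pairs the ratio was below 1 in every Sham library and did not overlap between the groups. Pfkfb3 to Pfkfb1 went from at most 0.676 in Sham to at least 23.8 in WT, and Slc16a3 to Slc16a1, the transporters MCT4 and MCT1, from at most 0.0229 to at least 1.15.

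**Figure D3:**
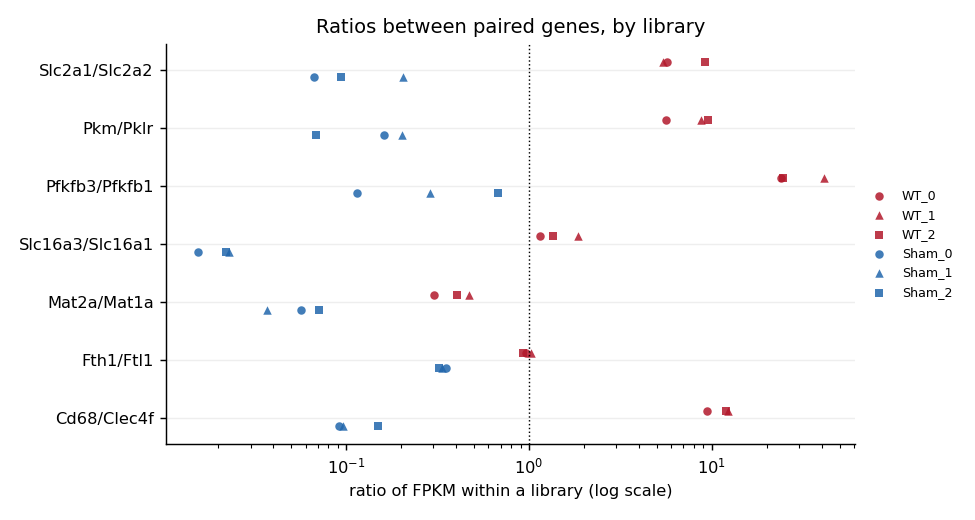
Ratio of the FPKM of 2 genes within each library, on a log scale, red for WT and blue for Sham, with 1 marker per library and a dotted line at a ratio of 1. WT and Sham ratios are apart in all 7 pairs. Pkm to Pklr is 5.65 or more in WT and 0.202 or less in Sham.

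Of 24 gluconeogenesis and glycogen genes, 5 rose under all 4 scalings (3 without WT_2) and 11 fell, 4 of them under all 4. As deposited, these shares are near the 16.4% and 41.9% of all tested genes. The 4 that fell under all 4 scalings were Gys2, the liver glycogen synthase (9.24, 10.7 and 7.73 FPKM in WT and 54.4, 65.5 and 84.4 FPKM in Sham), Pck1, the committed enzyme of gluconeogenesis (185, 179.7 and 133 FPKM in WT and 697, 1250 and 1241 FPKM in Sham), Fbp1 (112, 98.8 and 101 FPKM in WT and 611, 604 and 643 FPKM in Sham) and Slc37a4, the transporter that brings glucose 6-phosphate to its phosphatase (19.8, 26.0 and 18.1 FPKM in WT and 116, 113 and 121 FPKM in Sham). G6pc, that phosphatase, was at 41.6, 50.1 and 28.9 FPKM in WT and 46.0, 110.0 and 88.5 FPKM in Sham and its fall was called as deposited but not under all 4 scalings (call lost without WT_2, Sham_1 or Sham_2, limma adjusted p up to 0.11). Ppp1r3g, a glycogen-targeting subunit of protein phosphatase 1, rose from at most 0.233 FPKM to 4.49, 7.75 and 3.03 FPKM (log2 fold change 2.29 ± 0.38, limma adjusted p = 2.32e-04). Igfbp1, a secreted protein that binds insulin-like growth factors, stood at 718, 449.5 and 811 FPKM in WT and 54.3, 258 and 272 FPKM in Sham, with 1 Sham library low (log2 fold change 2.02 ± 0.48, limma adjusted p = 0.00294). Pdk4, which holds pyruvate back from oxidation, stood at 121, 45.5 and 131 FPKM in WT and 2.49, 4.80 and 2.18 FPKM in Sham (log2 fold change 4.50 ± 0.45, limma adjusted p = 3.72e-06). It was higher in every WT library, with WT_1 the lowest of the 3.

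Stress programmes inside the cell did not move as one. Of 18 tested p53 targets, 12 rose under all 4 scalings and 2 fell, 1 of them (Ei24) under all 4. Gadd45a and Gadd45b, which act on DNA repair and stress kinases, stood at 174, 349 and 141 FPKM and 71.6, 132 and 61.7 FPKM in WT against 9.70, 12.5 and 41.6 FPKM and 3.88, 7.62 and 7.74 FPKM in Sham. WT_1 was the highest library for both. Gdf15, a stress-induced hormone, stood at 63.5, 101 and 53.5 FPKM in WT and 8.28, 10.4 and 23.4 FPKM in Sham (log2 fold change 2.38 ± 0.39, limma adjusted p = 2.06e-04). Cdkn1a, the cyclin-dependent kinase inhibitor p21, stood at 100.5, 100.3 and 97.2 FPKM in WT and 25.2, 51.6 and 59.6 FPKM in Sham (log2 fold change 1.20 ± 0.32, limma adjusted p = 0.00632). Of 21 tested targets of ATF4 and CHOP, the factors of the integrated stress response, 12 rose under all 4 scalings. As deposited 3 fell, none of them under all 4. Ero1l, an oxidase of the endoplasmic reticulum, stood at 50.4, 48.6 and 28.4 FPKM in WT and 2.995, 3.51 and 3.73 FPKM in Sham (log2 fold change 3.26 ± 0.24, limma adjusted p = 3.62e-07). Ppp1r15a, which restarts translation, stood at 56.0, 97.4 and 45.3 FPKM in WT and 8.51, 11.8 and 13.3 FPKM in Sham (log2 fold change 2.41 ± 0.30, limma adjusted p = 2.15e-05). The genes that fell as deposited were Atf5 (-1.51), Asns (-1.37; call lost without WT_0, WT_2, Sham_0 or Sham_1, limma adjusted p up to 0.085) and Fgf21 (-0.83; call lost without WT_1, Sham_0 or Sham_2, limma adjusted p up to 0.094). Ddit3, which encodes CHOP, was called higher under all 4 scalings, but WT_1 was highest by far (31.4, 96.9 and 22.7 FPKM) and WT_2 lay inside the Sham range of 10.2 to 24.4 FPKM (call lost without WT_1, Sham_0 or Sham_1, limma adjusted p up to 0.11; 0.81 without WT_1). Chaperones of the endoplasmic reticulum fell instead: of 32 tested, 2 rose and 29 fell, 10 of these under all 4 scalings. Sdf2l1 stood at 17.0, 16.4 and 24.6 FPKM in WT and 161, 115 and 238 FPKM in Sham (log2 fold change -3.04 ± 0.26, limma adjusted p = 1.07e-06). Manf stood at 116, 117 and 115 FPKM in WT and 586, 405 and 889 FPKM in Sham. Dnajb11 stood at 27.2, 26.6 and 27.3 FPKM in WT and 124, 108 and 212 FPKM in Sham. The 2 that rose were the sensors of misfolded protein Ern1 (7.53, 7.86 and 6.33 FPKM in WT and 1.78, 2.34 and 2.46 FPKM in Sham) and Eif2ak3 (5.58, 4.58 and 5.87 FPKM in WT and 2.35, 3.12 and 5.03 FPKM in Sham; call lost without WT_0, WT_2, Sham_0 or Sham_1, limma adjusted p up to 0.17).

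Heat shock proteins split by member. Of 24 tested, 7 rose under all 4 scalings and 7 fell, 1 of them (Hspb8, 71.1, 81.7 and 59.0 FPKM in WT and 366, 353 and 448 FPKM in Sham) under all 4. Hspa1b, the inducible cytosolic HSP70, stood at 11.8, 32.6 and 17.5 FPKM in WT and 1.20, 1.99 and 2.12 FPKM in Sham (log2 fold change 2.87 ± 0.31, limma adjusted p = 7.38e-06). Hspb1, a small heat shock protein, stood at 49.1, 154 and 60.8 FPKM in WT and 11.9, 13.01 and 19.7 FPKM in Sham (log2 fold change 2.33 ± 0.34, limma adjusted p = 8.32e-05). In both, WT_1 was more than 1.5 times as high as the next WT library. Hspe1, the mitochondrial co-chaperonin, went the other way as deposited, with 75.1, 94.6 and 78.6 FPKM in WT and 397, 207 and 252 FPKM in Sham (log2 fold change -1.73 ± 0.24, limma adjusted p = 6.25e-05), and was at -0.48 with equal sums. The mitochondrial chaperonin Hspd1 stood at 84.3, 70.2 and 87.6 FPKM in WT and 130.1, 181 and 197 FPKM in Sham. The promoters of Hspa1b (minus strand, chr17:34959189-34959488) and Hspe1 (plus strand, chr1:55087898-55088197, a window shared with the oppositely directed Hspd1; both RefSeq, GRCm38.p6) are shown as members of the list that moved in opposite directions as deposited. Capitals mark the heat shock element, searched as GAANNTTC or TTCNNGAA:
Hspa1b: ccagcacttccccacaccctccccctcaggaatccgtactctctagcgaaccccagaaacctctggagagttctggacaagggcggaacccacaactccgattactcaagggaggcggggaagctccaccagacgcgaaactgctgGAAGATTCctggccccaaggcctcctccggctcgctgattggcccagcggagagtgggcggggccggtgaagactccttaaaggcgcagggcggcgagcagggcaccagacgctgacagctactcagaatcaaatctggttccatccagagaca
Hspe1: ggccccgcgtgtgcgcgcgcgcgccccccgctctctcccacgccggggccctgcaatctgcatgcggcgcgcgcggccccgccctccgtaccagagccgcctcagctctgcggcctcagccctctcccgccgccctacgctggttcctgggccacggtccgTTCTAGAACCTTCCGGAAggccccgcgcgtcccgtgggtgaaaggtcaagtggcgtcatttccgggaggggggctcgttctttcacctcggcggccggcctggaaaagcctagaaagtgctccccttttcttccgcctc
Hspa1b holds 1 match, beginning 104 bases before the start, and Hspe1 holds 3 overlapping ones, the first beginning 89 bases before it. The element was found in 13 of 25 promoters of the heat shock list (52.0%), in 10.6% of promoters of genes higher under all 4 scalings and in 15.1% of all promoters. Hspa1b has a near-identical copy, Hspa1a, and reads can be split between the 2, so both values are uncertain.

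NRF2 switches on genes against oxidants. Of 28 tested targets, 11 rose under all 4 scalings. As deposited 8 fell (5 without WT_0 and 4 without Sham_2), none of them under all 4. Hmox1, heme oxygenase 1, stood at 433, 399.5 and 388 FPKM in WT and 33.8, 19.9 and 25.9 FPKM in Sham (log2 fold change 3.92 ± 0.51, limma adjusted p = 3.28e-05). Osgin1 stood at 234, 216 and 231 FPKM in WT and 29.1, 43.7 and 77.6 FPKM in Sham (log2 fold change 2.27 ± 0.27, limma adjusted p = 1.76e-05). Pgd, of the pentose phosphate pathway, stood at 44.8, 37.3 and 55.4 FPKM in WT and 6.08, 9.77 and 11.7 FPKM in Sham (log2 fold change 2.22 ± 0.29, limma adjusted p = 3.20e-05). The ferritin chains moved apart: Fth1, the heavy chain, rose to 2828, 3350 and 3064 from 1584, 1599 and 1692 FPKM, while Ftl1, the light chain, was at 2918, 3261 and 3288 against 4518, 4794 and 5246 FPKM, lower as deposited (-0.62) and higher with equal sums (0.64; as deposited, call lost without WT_0 or Sham_2, limma adjusted p up to 0.066). The ratio of heavy to light chain within a library was 0.969, 1.03 and 0.932 in WT and 0.351, 0.334 and 0.323 in Sham. Mt1 and Mt2, the metallothioneins, were at 2984 FPKM or more in every library. Mt2 did not pass the test (log2 fold change -0.43 ± 0.38, limma adjusted p = 0.346), and Mt1 fell as deposited (log2 fold change -0.87 ± 0.33, limma adjusted p = 0.0372; call lost without WT_0, WT_1, WT_2 or Sham_2, limma adjusted p up to 0.18) but was at 0.39 with equal sums. Of 15 BCL2 family genes, 7 rose under all 4 scalings. As deposited 3 fell (1 without WT_1 or Sham_0), none of them under all 4. Those that rose included the protective Bcl2l1 (40.4, 37.3 and 44.3 FPKM in WT and 7.34, 10.8 and 17.1 FPKM in Sham) and the killer Bbc3 (7.68, 13.3 and 6.29 FPKM in WT and 2.02, 1.88 and 1.77 FPKM in Sham).

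The transcription factors that hold hepatocyte identity fell as deposited in 25 of 43 cases and rose in 3, but only 7 of the falls held under all 4 scalings, and with equal sums 19 members were higher and 7 lower. Nr1h4, the bile acid receptor FXR, stood at 9.63, 8.84 and 7.12 FPKM in WT and 64.3, 51.9 and 62.0 FPKM in Sham (log2 fold change -2.67 ± 0.15, limma adjusted p = 6.82e-08). Klf15, which drives amino acid use in fasting, stood at 3.45, 5.55 and 2.79 FPKM in WT and 44.7, 65.6 and 49.6 FPKM in Sham (log2 fold change -3.48 ± 0.24, limma adjusted p = 2.97e-07). Nr1h3, the oxysterol receptor, stood at 9.27, 11.03 and 10.2 FPKM in WT and 57.1, 37.5 and 39.9 FPKM in Sham. Hnf4a and Cebpa, the best-known factors of the class, stood at 52.2, 30.7 and 57.4 FPKM in WT and 85.2, 140.1 and 164 FPKM in Sham and at 64.8, 70.1 and 64.3 FPKM in WT and 101, 111 and 136 FPKM in Sham. Both fell as deposited (-1.45 and -0.78) and neither fell under all 4 scalings (with equal sums -0.21 and 0.46). The 3 that rose under every scaling were Srebf1, of lipid synthesis (51.9, 72.4 and 33.9 FPKM in WT and 5.47, 5.94 and 8.59 FPKM in Sham; log2 fold change 2.77 ± 0.44, limma adjusted p = 1.60e-04), Mlxipl, the glucose-sensing factor ChREBP (23.6, 34.5 and 21.9 FPKM in WT and 10.5, 9.0004 and 13.1 FPKM in Sham), and Bcl6 (6.27, 5.61 and 5.98 FPKM in WT and 1.66, 3.98 and 3.06 FPKM in Sham; call lost without WT_0, WT_1, WT_2 or Sham_0, limma adjusted p up to 0.12). Of 20 tested clock genes, 7 rose under all 4 scalings and 5 fell (3 without Sham_1 or Sham_2), 1 of them (Hlf) under all 4. Bhlhe40, which also answers to hypoxia, stood at 132, 108 and 106 FPKM in WT and 14.4, 19.9 and 33.0 FPKM in Sham. Nr1d1 stood at 29.5, 33.2 and 29.1 FPKM in WT and 5.31, 6.77 and 9.19 FPKM in Sham. Per1 stood at 15.9, 20.8 and 14.0 FPKM in WT and 3.01, 6.10 and 7.25 FPKM in Sham. The hour of collection is not given, and its part in these values was not tested.

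The growth hormone axis, through which the liver supplies IGF-1, held 4 of 19 members that rose and 8 that fell, near the 16.4% and 41.9% of all tested genes. The 3 that fell under all 4 scalings were Igf1 (96.0, 83.7 and 83.7 FPKM in WT and 305, 359 and 341 FPKM in Sham), its carrier subunit Igfals (2.88, 3.42 and 2.77 FPKM in WT and 19.8, 25.4 and 17.9 FPKM in Sham) and the receptor Ghr (35.8, 49.5 and 26.7 FPKM in WT and 151, 131 and 132 FPKM in Sham). Glucocorticoid-induced genes went both ways, with 5 of 20 higher under all 4 scalings and 6 lower, 3 of them under all 4. As deposited, the share that fell was below the 41.9% of all tested genes. Tat, tyrosine aminotransferase, stood at 128, 157 and 78.5 FPKM in WT and 361, 1143 and 1035 FPKM in Sham. Fkbp5 stood at 10.5, 6.61 and 9.66 FPKM in WT and 26.7, 52.5 and 55.3 FPKM in Sham. Dusp1 (50.8, 41.5 and 53.1 FPKM in WT and 5.90, 20.9 and 15.2 FPKM in Sham) and Ddit4 (40.3, 45.7 and 37.9 FPKM in WT and 6.26, 16.1 and 14.2 FPKM in Sham) were higher. Among 30 tested growth factors and receptors, 11 rose under all 4 scalings and 9 fell, 5 of them under all 4. Btc, an EGF receptor ligand, rose from below 0.72 FPKM to 11.6, 8.38 and 11.4 FPKM (log2 fold change 3.03 ± 0.22, limma adjusted p = 3.83e-07), Inhba, the activin A subunit, from below 1 FPKM to 16.7, 11.99 and 11.2 FPKM (log2 fold change 2.96 ± 0.18, limma adjusted p = 1.03e-07), and Pdgfa to 15.6, 28.8 and 15.4 from 2.41, 2.00 and 2.37 FPKM. The hepatocyte activin subunits went down: Inhbe stood at 1.37, 1.17 and 1.66 FPKM in WT and 31.2, 31.8 and 21.3 FPKM in Sham (log2 fold change -3.58 ± 0.27, limma adjusted p = 4.73e-07). Inhbc stood at 2.74, 4.52 and 2.24 FPKM in WT and 18.6, 21.3 and 29.6 FPKM in Sham (log2 fold change -2.55 ± 0.23, limma adjusted p = 1.78e-06). Fgf1 stood at 2.37, 2.97 and 1.66 FPKM in WT and 24.3, 32.5 and 25.3 FPKM in Sham.

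Genes of nitrogen metabolism fell broadly. Of 15 tested genes of the urea cycle and ammonia handling, none rose and 13 fell, 12 of them under all 4 scalings (median log2 fold change -2.37). Asl, argininosuccinate lyase, stood at 55.7, 64.8 and 38.0 FPKM in WT and 558, 653 and 631 FPKM in Sham (log2 fold change -3.54 ± 0.20, limma adjusted p = 6.37e-08). Cps1, the entry enzyme, stood at 64.0, 49.96 and 39.0 FPKM in WT and 322, 414 and 251 FPKM in Sham (log2 fold change -2.67 ± 0.26, limma adjusted p = 3.61e-06). Arg1, arginase, stood at 314, 343 and 192 FPKM in WT and 2574, 2003 and 1797 FPKM in Sham (log2 fold change -2.93 ± 0.25, limma adjusted p = 1.26e-06). Slc25a15, which carries ornithine into mitochondria, was at 10.4, 10.7 and 9.93 FPKM in WT and 113, 113 and 95.6 FPKM in Sham. Of 42 tested genes of amino acid breakdown, 41 fell, 35 of them under all 4 scalings, and none rose (median -2.27). Tdo2, which opens the ring of tryptophan, stood at 52.5, 65.4 and 35.2 FPKM in WT and 1271, 1283 and 914 FPKM in Sham (log2 fold change -4.50 ± 0.22, limma adjusted p = 2.04e-08). Aass, the first enzyme of lysine breakdown, stood at 13.7, 13.2 and 11.2 FPKM in WT and 213, 260.4 and 181 FPKM in Sham. Oat, ornithine aminotransferase, stood at 24.0, 47.0 and 22.8 FPKM in WT and 292, 489 and 347 FPKM in Sham. In each of these genes the lowest Sham value was several times the highest WT value. Of 30 genes of methionine and one-carbon metabolism, 25 fell (16 under all 4) and 3 rose, among them Mthfd2 (14.5, 9.90 and 15.3 FPKM in WT and 2.75, 1.58 and 3.07 FPKM in Sham) and Mthfd1l (4.40, 2.26 and 4.11 FPKM in WT and 0.148, 0.0961 and 0.0250 FPKM in Sham), enzymes of mitochondrial folate metabolism. Tpmt stood at 4.91, 4.64 and 5.30 FPKM in WT and 52.8, 42.4 and 46.4 FPKM in Sham. In the polyamine list 3 of 11 members rose under all 4 scalings, namely Odc1, which makes putrescine (96.2, 102 and 88.6 FPKM in WT and 56.7, 38.0 and 34.3 FPKM in Sham), Sat1 (243, 301 and 231 FPKM in WT and 158, 91.1 and 123 FPKM in Sham; call lost without WT_0, WT_1, WT_2, Sham_1 or Sham_2, limma adjusted p up to 0.15) and Smox. A further 6 fell as deposited, none of them under all 4. Of 21 amino acid transporters, 7 rose, all under the 4 scalings, and 10 fell, 4 of them under all 4. The heavy chain of the plasma membrane exchangers, Slc3a2 (58.9, 54.9 and 62.8 FPKM in WT and 16.3, 18.2 and 23.9 FPKM in Sham), and the light chain Slc7a5 (4.62, 5.41 and 4.64 FPKM in WT and 0.343, 0.478 and 0.779 FPKM in Sham) were among those that rose. Slc3a1 (1.04, 0.862 and 1.09 FPKM in WT and 28.3, 26.2 and 23.8 FPKM in Sham) and Slc1a2, a glutamate transporter (2.28, 9.17 and 3.13 FPKM in WT and 27.2, 45.6 and 40.7 FPKM in Sham), were among those that fell under every scaling.

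Bile acid synthesis fell in 15 of 18 tested genes, 12 under all 4 scalings, and no member rose. Cyp7a1, the rate-limiting enzyme, was low in both groups, at 0.460, 1.34 and 0.264 FPKM in WT and 5.78, 5.60 and 2.70 FPKM in Sham (log2 fold change -1.75 ± 0.33, limma adjusted p = 5.96e-04). Cyp7b1, of the alternative pathway, stood at 30.4, 42.4 and 27.4 FPKM in WT and 284, 378 and 271 FPKM in Sham (log2 fold change -3.19 ± 0.72, limma adjusted p = 0.00217). Baat, which conjugates bile acids to amino acids, stood at 42.9, 28.3 and 34.7 FPKM in WT and 287, 215 and 251 FPKM in Sham (log2 fold change -2.81 ± 0.20, limma adjusted p = 3.58e-07). Of 23 transporters, 18 fell (9 under all 4) and 2 rose (1 under all 4, Abcb1a; call lost without WT_0, WT_2, Sham_0 or Sham_2, limma adjusted p up to 0.13). Slc10a1, which takes bile acids up from blood, stood at 24.7, 35.8 and 17.1 FPKM in WT and 161, 207 and 179 FPKM in Sham (log2 fold change -2.82 ± 0.27, limma adjusted p = 2.87e-06). Abcb11, which exports them to bile, stood at 14.2, 28.9 and 11.6 FPKM in WT and 91.4, 86.7 and 127 FPKM in Sham (log2 fold change -2.500 ± 0.31, limma adjusted p = 1.96e-05). For both, WT_1 had the highest WT value.

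Most genes of fat burning fell as well. Of 37 tested genes of fatty acid oxidation and ketogenesis, 32 fell, 24 of them under all 4 scalings, and 1, Pdk4, rose (median log2 fold change -1.95). Cyp4a10, a fatty acid hydroxylase controlled by PPAR-alpha, stood at 12.97, 10.5 and 8.96 FPKM in WT and 101, 338 and 81.2 FPKM in Sham (log2 fold change -3.60 ± 0.65, limma adjusted p = 4.00e-04). The WT values were close to each other and below all Sham values. Cyp4a14, a related hydroxylase, was lower in WT (3.85, 3.91 and 4.15 FPKM), but the Sham libraries themselves ranged from 18.1 to 178.8 FPKM. Apolipoproteins and lipoprotein genes fell in 19 of 25 cases, 9 under all 4 scalings. Apoc4 stood at 219.8, 433 and 185 FPKM in WT and 3554, 1920 and 2242 FPKM in Sham. Apoa5, which promotes lipolysis of plasma triglyceride, stood at 213, 248 and 203 FPKM in WT and 1523, 1388 and 1891 FPKM in Sham. A further 2 rose under all 4. In the cholesterol list 4 of 27 members rose under all 4 (2 without Sham_0), a share near the 15.9% of all tested genes. Among them was Scap, which escorts the SREBP factors (15.5, 16.6 and 15.9 FPKM in WT and 7.56, 11.95 and 10.6 FPKM in Sham; call lost without WT_1 or Sham_0, limma adjusted p up to 0.089). In the same list 9 fell (6 without Sham_2) and only Ebp (21.02, 30.4 and 21.1 FPKM in WT and 148, 125 and 174 FPKM in Sham) did so under all 4. Of 28 lipogenic genes, 15 fell (5 under all 4) and 3 rose: Lpin2 (103, 104 and 84.1 FPKM in WT and 32.1, 42.0 and 26.4 FPKM in Sham), Srebf1 and Mlxipl. Elovl3, a fatty acid elongase, stood at 5.03, 7.82 and 3.74 FPKM in WT and 47.4, 71.4 and 58.4 FPKM in Sham. Thrsp stood at 67.4, 149 and 39.6 FPKM in WT and 482, 298 and 686 FPKM in Sham.

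In the lists of drug-metabolizing P450 genes, conjugating enzymes, and complement and coagulation genes, no member rose. Gsta1, the glutathione transferase among the largest rises, is in the list of NRF2 targets and not in that of conjugating enzymes. Of 27 tested drug-metabolizing P450 genes 24 fell, 14 under all 4 scalings, and of 36 conjugating enzymes 32 fell, 23 under all 4. Cyp2b10, a target of the receptor CAR, stood at 5.25, 10.9 and 5.12 FPKM in WT and 62.8, 161 and 164 FPKM in Sham (log2 fold change -3.96 ± 0.50, limma adjusted p = 2.35e-05). Cyp2e1 stood at 834, 1355 and 653 FPKM in WT and 3579, 4719 and 5089 FPKM in Sham (log2 fold change -2.29 ± 0.27, limma adjusted p = 1.40e-05). Mgst1 stood at 638, 819.7 and 624 FPKM in WT and 8070, 5503 and 6652 FPKM in Sham (log2 fold change -3.27 ± 0.26, limma adjusted p = 6.58e-07). Many of these genes belong to families of close relatives, between which reads can be split. Of 42 tested complement and coagulation genes made by hepatocytes, 39 fell and none rose, with 16 alike under all 4 scalings. Mbl1, a mannose-binding lectin, stood at 35.7, 47.5 and 34.7 FPKM in WT and 384, 274 and 323 FPKM in Sham (log2 fold change -3.03 ± 0.19, limma adjusted p = 1.30e-07). C8a stood at 45.0, 65.1 and 31.4 FPKM in WT and 229, 266 and 334 FPKM in Sham. Serpind1, an inhibitor of thrombin, stood at 20.5, 21.5 and 16.2 FPKM in WT and 146, 135 and 123 FPKM in Sham. Clotting and fibrinolysis genes made outside the hepatocyte went the other way, with 10 of 17 higher under all 4 scalings and 4 lower, 1 of them (Serpine2) under all 4. Plaur, the urokinase receptor, stood at 16.3, 11.6 and 15.6 FPKM in WT and 0.655, 0.647 and 0.403 FPKM in Sham (log2 fold change 3.29 ± 0.35, limma adjusted p = 5.82e-06). Procr, the protein C receptor, stood at 10.1, 8.65 and 11.6 FPKM in WT and 0.451, 0.566 and 0.294 FPKM in Sham (log2 fold change 2.95 ± 0.23, limma adjusted p = 6.28e-07). Anxa2, which binds tissue plasminogen activator, stood at 67.6, 34.1 and 106 FPKM in WT and 3.44, 3.26 and 2.57 FPKM in Sham, lowest in WT_1.

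Most genes of the mitochondrion fell as deposited. Of 43 tested nuclear genes for respiratory chain and ATP synthase subunits all 43 fell, 32 of them under all 4 scalings (median log2 fold change -1.83 as deposited and -0.63 with equal sums). Atp5j, of ATP synthase, stood at 64.5, 87.8 and 58.9 FPKM in WT and 497, 333 and 383 FPKM in Sham (log2 fold change -2.51 ± 0.21, limma adjusted p = 1.20e-06). Ndufb10, of complex I, stood at 52.9, 75.0 and 41.2 FPKM in WT and 309.6, 224 and 293 FPKM in Sham (log2 fold change -2.30 ± 0.22, limma adjusted p = 3.04e-06). All 23 tested tricarboxylic acid cycle genes fell, 8 under all 4, with Fh1, fumarate hydratase, at 25.0, 37.2 and 28.0 FPKM in WT and 401, 378 and 447 FPKM in Sham (log2 fold change -3.74 ± 0.19, limma adjusted p = 2.92e-08). Of the 13 genes of the mitochondrial genome, 4 (mt-Co1, mt-Co3, mt-Atp6 and mt-Atp8) were listed at exactly 0 in all WT libraries. Among the other 9, 8 fell as deposited and 1, mt-Nd3 (101, 69.2 and 103 FPKM in WT and 508, 459.9 and 569.8 FPKM in Sham), under all 4 scalings. The sum over those 9 was 12798, 9518 and 10839 FPKM in WT and 20139, 30487 and 27292 FPKM in Sham. Mitochondrial carriers fell in 22 of 29 cases (9 under all 4), and Slc25a37, the iron importer mitoferrin 1 (5.73, 4.75 and 7.51 FPKM in WT and 1.62, 3.23 and 2.83 FPKM in Sham), was 1 of 2 that rose. Peroxisome biogenesis fell in 17 of 19 (6 under all 4), and 1 rose under all 4 (none without WT_1, WT_2, Sham_0 or Sham_1), with Pex11a, which divides peroxisomes, at 20.9, 13.8 and 24.9 FPKM in WT and 82.9, 77.1 and 70.0 FPKM in Sham. In iron and heme metabolism 17 of 29 fell (6 under all 4) and 2, Fth1 and Hmox1, rose under all 4 (4 rose without WT_1). Alas1, the rate-limiting enzyme of heme synthesis, stood at 101, 71.0 and 82.5 FPKM in WT and 405, 1031 and 757 FPKM in Sham (log2 fold change -3.01 ± 0.37, limma adjusted p = 2.14e-05). Cpox stood at 5.70, 5.999 and 4.81 FPKM in WT and 65.6, 75.6 and 71.4 FPKM in Sham. Hamp, the iron hormone hepcidin, was at 1086, 1138 and 1025 FPKM in WT and 8254, 2756 and 12555 FPKM in Sham. The WT values were close to each other and below all Sham values, but the Sham libraries differed by more than 4-fold among themselves, and the fall was not called under all 4 scalings (call lost without Sham_0 or Sham_2, limma adjusted p up to 0.069). Among selenoproteins 12 of 18 fell (6 under all 4), with Dio1, the deiodinase that activates thyroid hormone, at 19.6, 33.1 and 14.8 FPKM in WT and 181, 164 and 118 FPKM in Sham, while Gpx3, the plasma glutathione peroxidase, rose to 37.2, 53.8 and 29.5 from 3.19, 2.42 and 3.75 FPKM (log2 fold change 3.29 ± 0.26, limma adjusted p = 6.04e-07).

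For several groups of basic cell machinery the direction itself turned with the scaling. Of 51 tested cytosolic ribosomal protein genes 24 fell as deposited and none rose, while with equal sums 45 were higher and none lower, and none was called alike under all 4. The deposited count itself was 13 without WT_0 and 12 without Sham_0. The proteasome had 29 of 35 lower as deposited and 15 higher with equal sums, with 3 falls (Psmb5, Psmd6 and Psmb1) and 1 rise (Psmd8) alike under all 4. Psmb5, a catalytic subunit, stood at 39.4, 53.02 and 50.8 FPKM in WT and 273, 212 and 244 FPKM in Sham (log2 fold change -2.33 ± 0.23, limma adjusted p = 4.03e-06). Autophagy and lysosome genes had 18 of 41 lower as deposited, a share near the 41.9% of all genes, and 26 higher with equal sums. Lamp2, a lysosomal membrane protein, was 1 of the 2 that fell under every scaling, at 52.2, 50.9 and 49.6 FPKM in WT and 291, 249.7 and 225 FPKM in Sham, and Ctsh was the other. Mitochondrial ribosome genes had 38 of 42 lower as deposited and 5 under all 4. Ribosome biogenesis kept its direction, with 16 of 49 higher under all 4 scalings and 4 lower as deposited, none of them under all 4. Gar1, of the small nucleolar particles, stood at 31.7, 59.3 and 30.5 FPKM in WT and 9.69, 14.3 and 12.5 FPKM in Sham (log2 fold change 1.60 ± 0.33, limma adjusted p = 0.0012). Noc2l stood at 16.8, 16.3 and 16.6 FPKM in WT and 5.75, 7.17 and 7.51 FPKM in Sham. For translation and splicing factors the shares called under all 4 scalings, 6 of 32 and 7 of 35 higher, were near the background of 15.9%, and leaving out single libraries brought them down to as few as 2 (translation, without WT_2) and 3 (splicing, without WT_0).

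Genes of cell shape rose. Of 40 tested keratin, tubulin and actin cytoskeleton genes, 26 rose under all 4 scalings (median log2 fold change 1.16). As deposited 2 fell, but not under all 4. Tmsb10, which binds actin monomers, stood at 92.9, 92.0 and 112 FPKM in WT and 9.68, 6.54 and 6.98 FPKM in Sham (log2 fold change 3.53 ± 0.21, limma adjusted p = 9.68e-08). Tubb6 stood at 47.5, 36.1 and 46.6 FPKM in WT and 3.02, 3.19 and 5.13 FPKM in Sham (log2 fold change 3.23 ± 0.26, limma adjusted p = 6.90e-07). Vim, vimentin, stood at 43.7, 28.6 and 31.7 FPKM in WT and 2.33, 2.35 and 3.93 FPKM in Sham (log2 fold change 3.21 ± 0.22, limma adjusted p = 2.94e-07). Actb, beta actin, rose with 444, 665 and 425 FPKM in WT and 186, 277 and 293 FPKM in Sham (log2 fold change 1.02 ± 0.27, limma adjusted p = 0.00662). Of 26 matrix remodelling genes 14 rose under all 4 scalings and 3 fell as deposited, none of them under all 4. Tgm2, which cross-links matrix proteins, stood at 416, 309 and 429.6 FPKM in WT and 23.5, 35.1 and 56.8 FPKM in Sham (log2 fold change 3.36 ± 0.32, limma adjusted p = 2.71e-06). Adamts1 stood at 13.4, 8.07 and 10.9 FPKM in WT and 1.33, 1.62 and 1.31 FPKM in Sham. Among integrins and matrix receptors 7 of 18 rose under all 4 and 3 fell, 1 of them under all 4, with Cd63 at 62.9, 53.04 and 64.4 FPKM in WT and 4.49, 2.196 and 4.30 FPKM in Sham. Itga5 stood at 10.3, 6.25 and 8.92 FPKM in WT and 0.897, 1.59 and 1.69 FPKM in Sham. Of 24 cell junction genes, 11 rose and 7 fell as deposited. Gja1, connexin 43, rose to 8.99, 7.40 and 7.82 from 1.25, 1.31 and 0.901 FPKM, while Gjb1 and Gjb2, the connexins of the hepatocyte, stood at 99.1, 123 and 98.9 FPKM in WT and 326, 337 and 332 FPKM in Sham and at 109, 107 and 85.05 FPKM in WT and 205, 250.2 and 325 FPKM in Sham. The 11 rises in this list held under all 4 scalings, though 7 were left without WT_0, Sham_1 or Sham_2, and the 7 falls did not hold (4 without Sham_2). Of 23 S100 and annexin genes 7 rose, with S100a11 at 65.5, 48.6 and 92.5 FPKM in WT and 7.97, 5.55 and 10.4 FPKM in Sham, and 2 fell under all 4, with S100a1 at 30.7, 41.8 and 22.6 FPKM in WT and 272, 171 and 214 FPKM in Sham. Of 24 genes of mitosis in the table only 2 were high enough to test and neither was called by limma, nor passed an unadjusted p under 0.05. Of 20 genes of cell cycle entry 8 rose under all 4, among them Mcm7 (7.36, 9.25 and 7.81 FPKM in WT and 3.10, 2.09 and 2.40 FPKM in Sham), while 6 fell (3 without WT_1) and 1 of them, Ccnd1, cyclin D1, did so under all 4 (0.637, 1.43 and 0.633 FPKM in WT and 4.76, 4.44 and 5.52 FPKM in Sham).

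Across the lists with at least 9 tested members, the shares called alike under all 4 scalings ran from 10 of 11 higher for the AP-1, ATF and MAF factors to 35 of 42 lower for amino acid catabolism. In 11 lists with no rise as deposited, limma on those values also gave no higher member at an unadjusted p under 0.05. They included urea cycle, amino acid catabolism, bile acid synthesis, P450 genes, conjugating enzymes and tricarboxylic acid cycle. The others were complement and coagulation, both lists of respiratory chain genes, and both ribosomes. For autophagy and lysosome genes limma gave 2. This held for the deposited values only. With equal summed FPKM, 45 of 51 cytosolic and 6 of 42 mitochondrial ribosome genes were called higher, and 0 to 3 members in each remaining list. The members of a list share regulators and a tissue, so they are not replicates, and no test was made of a list.

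**Figure D4:**
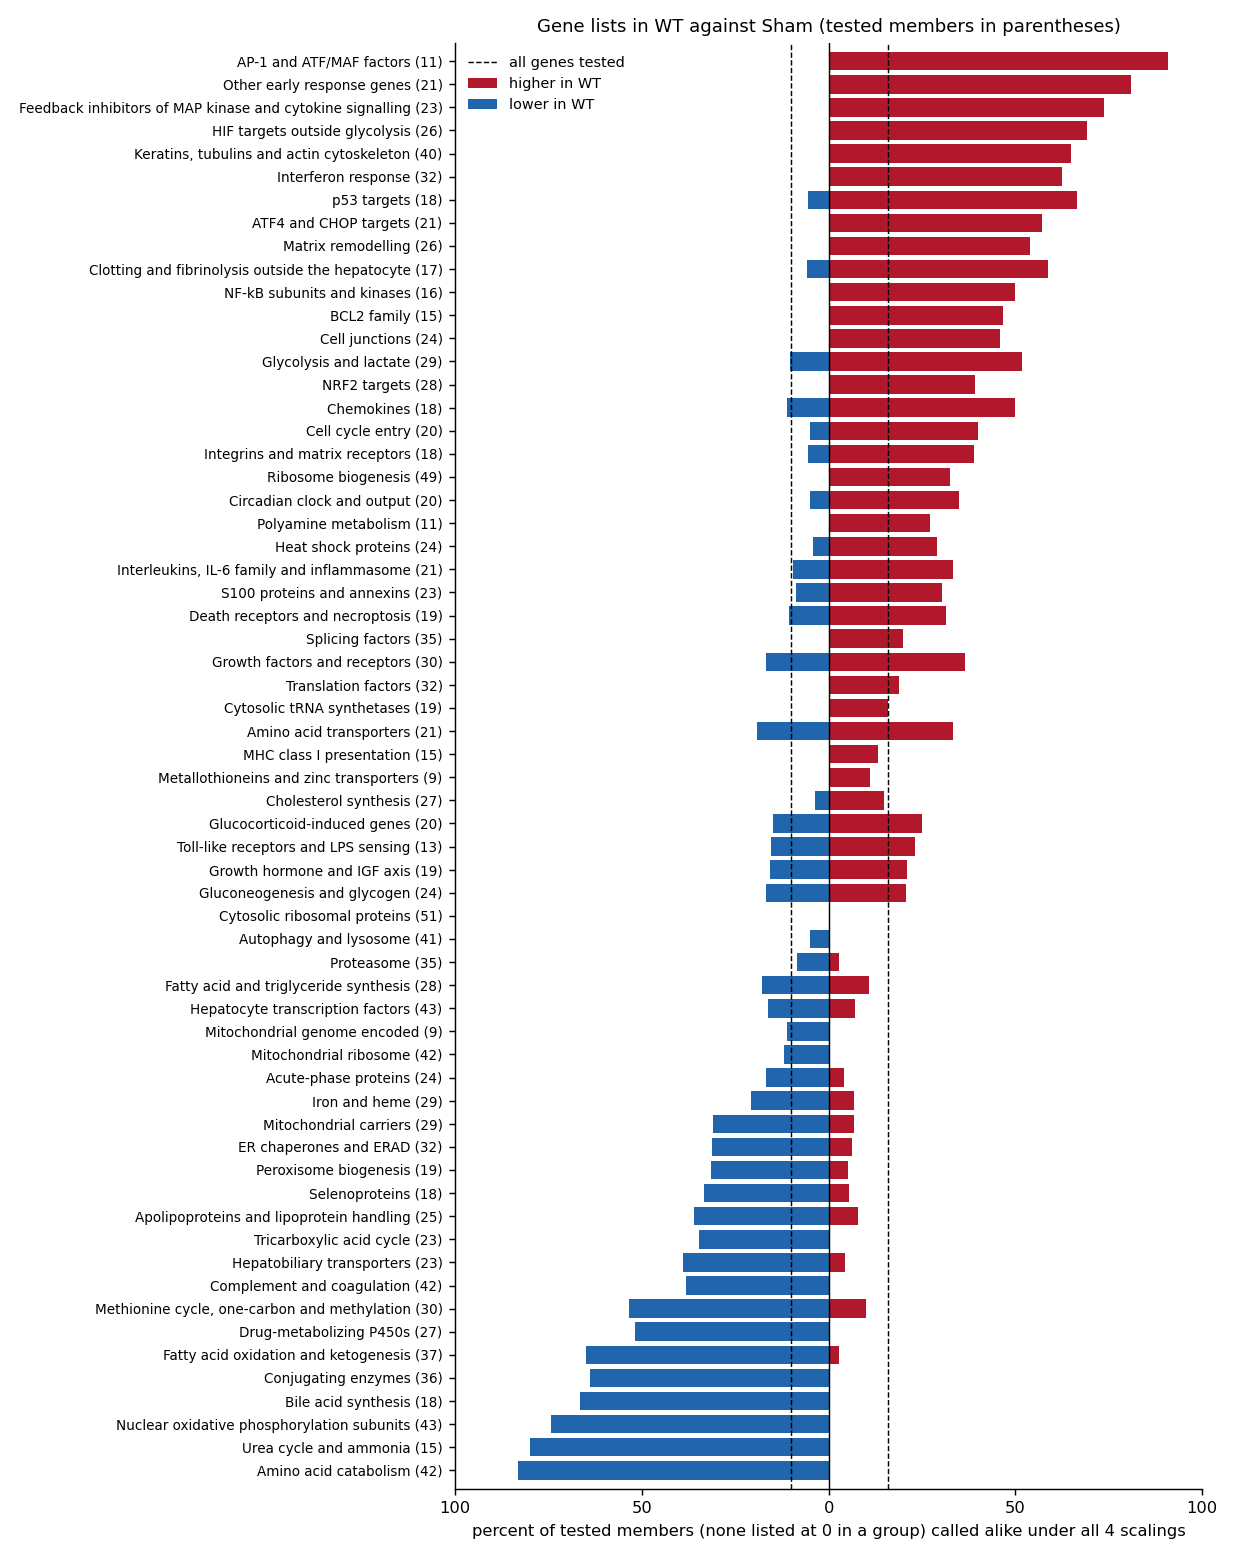
Percent of the tested members of each list called higher (right, red) or lower (left, blue) in WT under all 4 scalings, without members listed at 0 in a group; dashed lines mark the 15.9% and 10% of all tested genes. The lists of AP-1 factors, other early response genes, feedback inhibitors and HIF targets have the 4 highest shares on the right, and amino acid, urea and respiratory chain lists furthest to the left.

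Markers of some other cell types in the liver, but not of all, differed between the groups. Of 13 tested markers of Kupffer cells, the resident macrophages, 8 fell (5 under all 4 scalings) and 1, Cd68, rose. Clec4f, which is restricted to these cells, stood at 4.44, 4.94 and 3.90 FPKM in WT and 29.6, 23.3 and 14.4 FPKM in Sham (log2 fold change -2.06 ± 0.25, limma adjusted p = 1.87e-05). Cd5l stood at 1.48, 2.80 and 1.57 FPKM in WT and 14.3, 19.9 and 8.999 FPKM in Sham. Vsig4 stood at 1.20, 0.699 and 0.460 FPKM in WT and 6.68, 5.15 and 3.57 FPKM in Sham. The ratio of Cd68, a marker of many phagocytes, to Clec4f was 9.39, 12.3 and 11.9 in WT and 0.0917, 0.0956 and 0.149 in Sham. Sinusoidal endothelial markers had 2 of 18 higher under all 4, Cdh5 (6.79, 5.35 and 5.66 FPKM in WT and 1.02, 2.00 and 1.07 FPKM in Sham) and Pecam1 (8.44, 6.38 and 6.59 FPKM in WT and 2.48, 2.74 and 2.23 FPKM in Sham), and 5 lower (2 without WT_1, WT_2 or Sham_0, and 3 without Sham_1), 1 of them (Clec4g, 1.36, 1.02 and 0.546 FPKM in WT and 26.5, 21.3 and 12.6 FPKM in Sham) under all 4. For these endothelial markers, both deposited shares were below the 16.4% higher and 41.9% lower of all tested genes. Of 16 stellate cell and fibroblast markers 8 rose under all 4, with Col3a1 at 32.2, 10.4 and 27.7 FPKM in WT and 0.554, 0.805 and 0.712 FPKM in Sham (log2 fold change 3.72 ± 0.42, limma adjusted p = 1.10e-05), and 1, Colec11, fell under all 4. Of 9 cholangiocyte markers 4 rose under all 4, with Sox9 at 28.9, 15.9 and 27.2 FPKM in WT and 1.33, 2.05 and 3.57 FPKM in Sham (log2 fold change 2.93 ± 0.33, limma adjusted p = 9.53e-06). Few markers of lymphocytes, dendritic cells and platelets reached the level for testing (3 of 16 for T and NK cells, 3 of 12 for B and plasma cells, 4 of 12 for dendritic cells and 3 of 10 for platelets). Haemoglobin genes, from blood in the tissue, summed to 71.5, 75.4 and 145 FPKM in WT and 226, 270 and 103 FPKM in Sham, which overlap. The part of these cells in the changes of other lists was not tested.

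No neutrophil marker was called higher or lower by limma with all 6 libraries, and the 3 WT libraries differed from each other. S100a8 and S100a9, the main proteins of neutrophil cytosol, stood at 37.2, 0.948 and 86.2 FPKM in WT and 25.5, 17.0 and 9.52 FPKM in Sham and at 62.2, 3.19 and 159 FPKM in WT and 51.3, 28.1 and 25.6 FPKM in Sham. The granule gene Ngp was at 10.97, 0 and 21.1 FPKM in WT and below 0.17 FPKM in Sham, and Camp and Ltf were likewise at 3.84 and 4.10 FPKM in WT_0, at 8.44 and 7.98 FPKM in WT_2, and near 0 in WT_1 and Sham. WT_0 and WT_2 were thus above Sham in all 5 of these genes and WT_1 below or level with it. Of the 8 tested neutrophil markers that were above 0 in some library of each group, limma gave none at an unadjusted p under 0.05, and 3 were called higher without WT_1. The same library was high for mesothelial genes, which line the liver surface: Msln stood at 0.776, 4.81 and 2.16 FPKM and Krt19, also a cholangiocyte gene, at 1.61, 8.89 and 3.46 FPKM in WT. Both were called with all libraries (Msln, call lost without WT_1, WT_2, Sham_1 or Sham_2, limma adjusted p up to 0.15, and Krt19, call lost without WT_1 or Sham_1, limma adjusted p up to 0.096). Spp1, osteopontin, was low in it (132, 38.8 and 169 FPKM in WT and 21.1, 25.5 and 18.9 FPKM in Sham). The genes in this paragraph other than S100a8, S100a9 and Spp1 were picked after their values had been seen. Leaving WT_1 out did not reduce the counts in the early response lists (10 of 11 and 17 of 21 members higher).

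**Figure D5:**
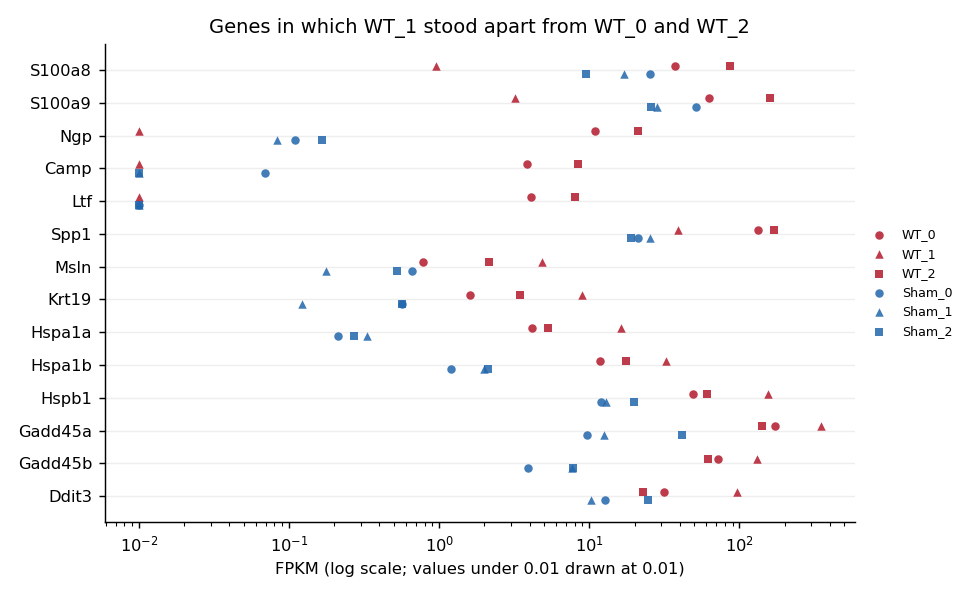
FPKM on a log scale in each library, red for WT and blue for Sham, for neutrophil genes (S100a8 to Ltf), Spp1, mesothelial genes (Msln, Krt19), heat shock genes and stress genes. WT_1, the red triangle, is lowest of the WT libraries in the 5 neutrophil genes and highest in the mesothelial, heat shock and stress genes.

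Fold changes also followed transcript length and mean level. Tested genes were put into 4 bins of equal number by transcript length. In the bin of the shortest transcripts (151 to 1629 bases) the median log2 fold change was -0.73 as deposited, and it was -0.49, -0.23 and 0.03 in the next 3 bins, up to the longest (4362 to 40378 bases). With equal sums the same medians were 0.22, 0.56, 0.83 and 1.10. Calls alike under all 4 scalings followed: 7.6% of the shortest and 23.6% of the longest genes were higher, and 14.5% and 4.0% were lower. By mean level over the 6 libraries, the medians ran from -0.04 in the lowest of 4 bins to -1.04 in the highest as deposited, and 23.1% of the highest bin were lower under all 4 scalings against 4.4% of the lowest. Adding 1 FPKM before the log pulls fold changes of low genes toward 0, and the level came from the same 6 libraries. Part of this gradient can thus follow from the method. With the trend on length removed in each library, 1722 genes were higher and 5024 lower. Of 152 counts of list members, 18 then moved by more than 1.5 times. Cytosolic ribosomal protein genes had 11 lower in place of 24, cell junction genes 7 higher in place of 11, and the median of the NF-kB list went from 0.36 to -0.02. The part of level in the values of the gene lists was not tested.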

How the data were processed

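RNA was measured in 12 libraries of mouse liver, of which the 3 WT and 3 Sham libraries form the comparison. The deposited table gives FPKM per gene, made by the authors with STAR 2.5.4a, Cufflinks 2.2.1 and Cuffdiff on mm10, per the submitters' processing notes. Their roles, options, annotation, strand setting and scaling between libraries are not given in the sources used here. Read depth is not given either, so no counting error is given. Total RNA was extracted with Trizol and libraries were made with an NEB kit, per the labels' protocols. Column names match the title of one library and the description of another, so columns were tied to groups, not to single labelled samples.

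Of 53796 rows, 53702 (99.8%) carried a GENCODE M21 identifier, which gave coordinates and lengths. Where 131 symbols were shared, genes were kept apart by identifier. Genes at 1 FPKM or more in 3 of the 12 libraries were fitted on log2(FPKM + 1) with limma 3.58.1 (R 4.3.3), with a mean-variance trend and 4 group means over 12 libraries (8 residual degrees of freedom). P-values are two-sided and adjusted over 11728 genes. The fit was tested on simulated data. Scaling, pseudocount, filter, trend, libraries in the fit, transcript length and single libraries were varied; the scaling to equal summed FPKM was added after the data had been seen. Library sums were compared by exact permutation (SciPy 1.17.1). Lists and members were chosen with earlier results of these data known. Named genes are the 15 largest rises and falls without overlap between the groups, whose group means reach 5 FPKM (higher group) and 0.1 FPKM (lower group), up to 4 members per list under the same conditions, members moving against their list, and fixed landmark genes; some genes the rule names are not reported here. Promoters are from RefSeq (GRCm38.p6); 8259 of 11728 tested genes had an entry.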

Additional observations from a re-analysis of the deposited data

How the results depend on the processing

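Scaling had the largest effect on the counts. Against 1918 genes higher and 4913 lower as deposited, median-of-ratios scaling gave 3169 and 3185, quantile normalization 2936 and 3164, and equal summed FPKM 6236 and 1183. With a filter of 5 FPKM, which leaves fewer genes to test, 881 were higher and 3893 lower. The other settings stayed within 1.5 times: 1869 to 1925 higher and 4854 to 4904 lower over the pseudocounts of 0.1 and 5 FPKM, 2738 and 4737 with no filter, 1851 and 4798 with only the 6 libraries, and 1613 to 2010 higher and 4393 to 4685 lower when each library was left out in turn. Of the 245 tested genes named in the text, 18 changed sign with equal summed FPKM: Bnip3 0.55, Cebpa 0.465, Chuk 0.14, Fgf21 0.29, Ftl1 0.64, G6pc 0.29, Hba-a1 0.35, Hbb-bs 0.24, Hspd1 0.21, Iigp1 0.27, Irf9 0.57, Ldha 0.53, Map3k7 0.18, Mt1 0.39, Mt2 0.83, Plin2 0.0070, Ripk1 0.47 and Tbk1 0.57. With quantiles 11 did: Bnip3 0.50, Cebpa 0.40, Ftl1 0.83, G6pc 0.074, Hba-a1 0.006, Hbb-bs 0.12, Hspd1 0.18, Iigp1 0.17, Ldha 0.57, Mt1 0.87 and Mt2 1.47. Mt2 was at 0.022 with median of ratios, and S100a8 and S100a9 at -0.11 and -0.065 with a pseudocount of 0.1 FPKM. Left-out libraries turned 4 genes that had not passed the test: Lcn2 ranged from -0.16 to 0.49, Mt2 from -0.78 to 0.0030, S100a8 from -0.99 to 1.75 and S100a9 from -1.08 to 1.55. The cause of these turns was not tested. Of 152 counts of list members, 117 moved by more than 1.5 times with equal summed FPKM, 67 with quantiles, 38 with median of ratios, 24 with the filter of 5 FPKM, 18 with the length trend removed and 8 to 16 with a library left out. The ratio of summed FPKM stayed between 0.400 and 0.430. No paired analysis was possible because the columns of the 2 groups carry no number that can be tied to a labelled sample, so a replicate block was not run. Depth is unknown from FPKM, and 3 libraries a group limit every exact p to 0.1.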

Other observations

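Cytosolic tRNA synthetases, which load amino acids onto tRNA, did not move together. Of 19 tested, 3 were higher under all 4 scalings, a share (15.8%) near the 15.9% of all tested genes. As deposited only, 6 were lower (3 without Sham_2), a share below the 41.9% of all tested genes. Vars stood at 18.2, 19.8 and 22.9 FPKM in WT and 3.62, 5.51 and 10.8 FPKM in Sham, with each WT library above each Sham library (log2 fold change 1.58 ± 0.30, limma adjusted p = 5.37e-04). Gars stood at 28.4, 21.6 and 30.7 FPKM in WT and 13.4, 14.8 and 16.6 FPKM in Sham (log2 fold change 0.80 ± 0.18, limma adjusted p = 0.00246). Sars, the third that rose, stood at 41.3, 39.9 and 46.5 FPKM in WT and 23.8, 24.6 and 29.4 FPKM in Sham. Among erythroid markers, Alas2, the heme synthesis enzyme of red cell precursors, was at 8.39, 12.3 and 7.72 FPKM in WT and 42.9, 46.9 and 63.6 FPKM in Sham (log2 fold change -2.32 ± 0.47, limma adjusted p = 9.51e-04) and was called lower under all 4 scalings. The values of Hba-a1 and Hbb-bs, the globin genes, overlapped between the groups (21.5, 18.5 and 40.5 against 46.1, 70.0 and 32.5 FPKM and 38.0, 48.0 and 76.7 against 142, 164 and 50.1 FPKM).

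Promoters of the genes called alike under the 4 scalings differed in base composition. Those of 1395 higher genes with an entry had a mean GC content of 62.4%, those of 822 lower genes 55.8%, those of all tested genes 60.3%, and all promoters 53.8%. The letters TATAAA were in 8.1%, 11.6%, 8.0% and 13.6% of these 4 sets, and the C/EBP sequence TTGCNNAA in 7.7%, 13.4%, 9.2% and 10.8% (both strands). The HNF4 sequences CAAAGTCCA and CAAAGGTCA were in 0.7%, 2.8%, 1.0% and 0.9%. These shares are descriptions of letters in a window of 300 bases, with no test.

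Some abundant genes were listed at exactly 0 in a whole group: 7 in WT that reached 100 FPKM or more in Sham, and 9 the other way. Among them, Serpina3k and Serpina3m, which are members of a cluster of near-identical serpins, were listed at 0 in Sham and stood at 1730 to 2215 FPKM and at 355 to 529 FPKM in WT.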
